A study of Saccharomyces cerevisiae with 12 samples.

Results

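CDK/DDK bypass G1 cells were set against wild-type G1 cells of budding yeast, Saccharomyces cerevisiae. The comparison takes 8 of the 12 samples of the series, the 4 labelled as bypass of CDK and DDK and the 4 labelled as wild type in G1, and uses each gene's raw read count in them. The bypass strain, YKR1503, carried Dbf4, Dpb11 and Sld2-T84D, an Sld2 that mimics its phosphorylated form, under the galactose-inducible pGAL1-10 promoter, while the wild-type G1 cells were strain YKR1500. Both are W303 strains, and the full genotypes were not used here. Both groups were held in G1 for 2.5 h with the mating pheromone α-factor in YP medium that held adenine (0.25 mM) and raffinose (2%) and then received 2% galactose for 3 h, so that galactose and pheromone are shared by the controls. Each group has its own strain, and strain and bypass cannot be told apart. The remaining 4 samples were wild-type S cells of strain E3087 released from the arrest for 30 min. They entered the gene filter, the normalization and the estimate of the spread, and they serve as a reference for marker genes. Nothing in the sources used here says that the replicates were separate cultures, so the p-values measure the spread between these samples.

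The pair of kinases that normally hold origin firing to S phase are cyclin-dependent kinase (CDK), which phosphorylates Sld2 and Sld3 so that they bind Dpb11, and Dbf4-dependent kinase (DDK), which phosphorylates the Mcm2-7 helicase. Excess Dpb11 with an Sld2 that mimics phosphorylation takes the place of the CDK step, and extra Dbf4, the activating subunit of DDK, supplies that kinase in G1. The question here is which other gene programmes differ between the bypass and wild-type G1 cells, and which of these differences are found in replicates 1 and 2 and again in replicates 3 and 4.

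Between 8999319 and 10460014 read pairs were counted on genes in the 8 samples. DBF4, the least induced of the 3 factors, stood at 900.0 ± 47.9 CPM (SD, n = 4) in bypass cells and 101 ± 4.96 CPM in wild-type G1, and counts do not separate induced from endogenous copies. The sum of the pheromone-arrest markers FUS1, AGA1, FIG1 and PRM6 was 12482 to 13131 CPM (read counts scaled by normalized library size) in bypass cells and 11988 to 12460 CPM in wild-type G1, against 113 to 185 CPM in wild-type S. The sum of 6 markers of the start of S phase (CLN2, PCL1, CLB5, CLB6, RNR1 and YOX1) was 143 to 159 CPM in bypass cells, 119 to 136 CPM in wild-type G1 and 1721 to 2138 CPM in wild-type S, so that the G1 groups did not overlap. CLB5, RNR1 and YOX1 were higher in every bypass sample than in any wild-type G1 sample. CLN2 was lower in every one (38.9 to 46.1 against 49.6 to 55.6 CPM). PCL1 and CLB6 overlapped between the G1 groups, with lower medians in bypass cells. The sum of 4 markers of the other mating type was higher in bypass cells, 55.7 to 60.3 against 37.9 to 49.4 CPM in wild-type G1. Most of it was SAG1 (at least 47.8 against at most 43.6 CPM), while the α-factor genes MF(ALPHA)1 and MF(ALPHA)2 were at most 1.54 CPM. The part of these differences in the results below was not tested. Within each group, libraries 1 and 2 were alike, as were 3 and 4. The mean chi-square per gene between wild-type G1 libraries was 1.83 to 2.43 within these pairs and 43.2 to 46.6 across them, against 1.48 to 1.52 and 3.02 to 3.49 in the bypass group, where counting noise alone gives about 1. Of 5662 genes tested, 3148 (55.6%) differed between the wild-type G1 pairs and 214 (3.78%) between the bypass pairs (edgeR, adjusted p below 0.1). What the pairs stand for is not given in the labels. Counts called in both pairs are therefore given for the main lists. Pair values are given for many, but not all, of the genes and lists whose change depended on the pair.

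In the comparison of all 4 replicates, 1470 of the 5662 genes (26.0%) were higher in bypass cells and 1613 (28.5%) were lower at an adjusted p below 0.1 (edgeR quasi-likelihood test, Benjamini-Hochberg). The changes were mostly small. The median size among called genes was 0.29 on the log2 scale, and 74 rises and 32 falls exceeded 1. Tested within each replicate pair, 3750 genes (66.2%) were called in replicates 1 and 2 and 3616 (63.9%) in replicates 3 and 4. The p-values and SEs within a pair measure only the spread of 2 similar libraries, not the larger spread between the wild-type G1 pairs. In both pairs with the same sign, 2282 genes (40.3%) were called. Of these, 1148 genes (20.3%) were higher in both pairs and 1134 (20.0%) were lower in both, while 444 (7.84%) were called in both pairs with opposite signs. Genes called over the 4 replicates as well as in both pairs numbered 1134 higher (20.0%) and 1124 lower (19.9%), and the bypass samples lay above all wild-type G1 samples for 1249 genes (22.1%) and below them for 1240 (21.9%). The change itself differed between the pairs for 2293 genes (40.5%). These percentages are the background against which each gene list below is to be read. Scaled to the ERCC spike-ins, synthetic RNAs added to the total RNA, in place of the gene counts, the all-gene median on the log2 scale moved from -0.02 to 0.20, and 2534 genes were called higher and 252 lower. Directions below are therefore relative to the bulk of genes. With counts summed within the replicate pairs, which leaves 2 sums in each group, 739 genes were higher and 738 lower, and 139 of the 323 named genes lost their call. They included LEU2, LEU9, PUP1, SSS1, SEC63, HAC1, ADH1, CDC19, TPI1, MLS1, GAL1, FUS1, MSB2, CDC6, ORC1, ARG1, MET3, MMP1, MRS4, SIT1, TIS11, FIT3 and RPA49.

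**Figure D1:**
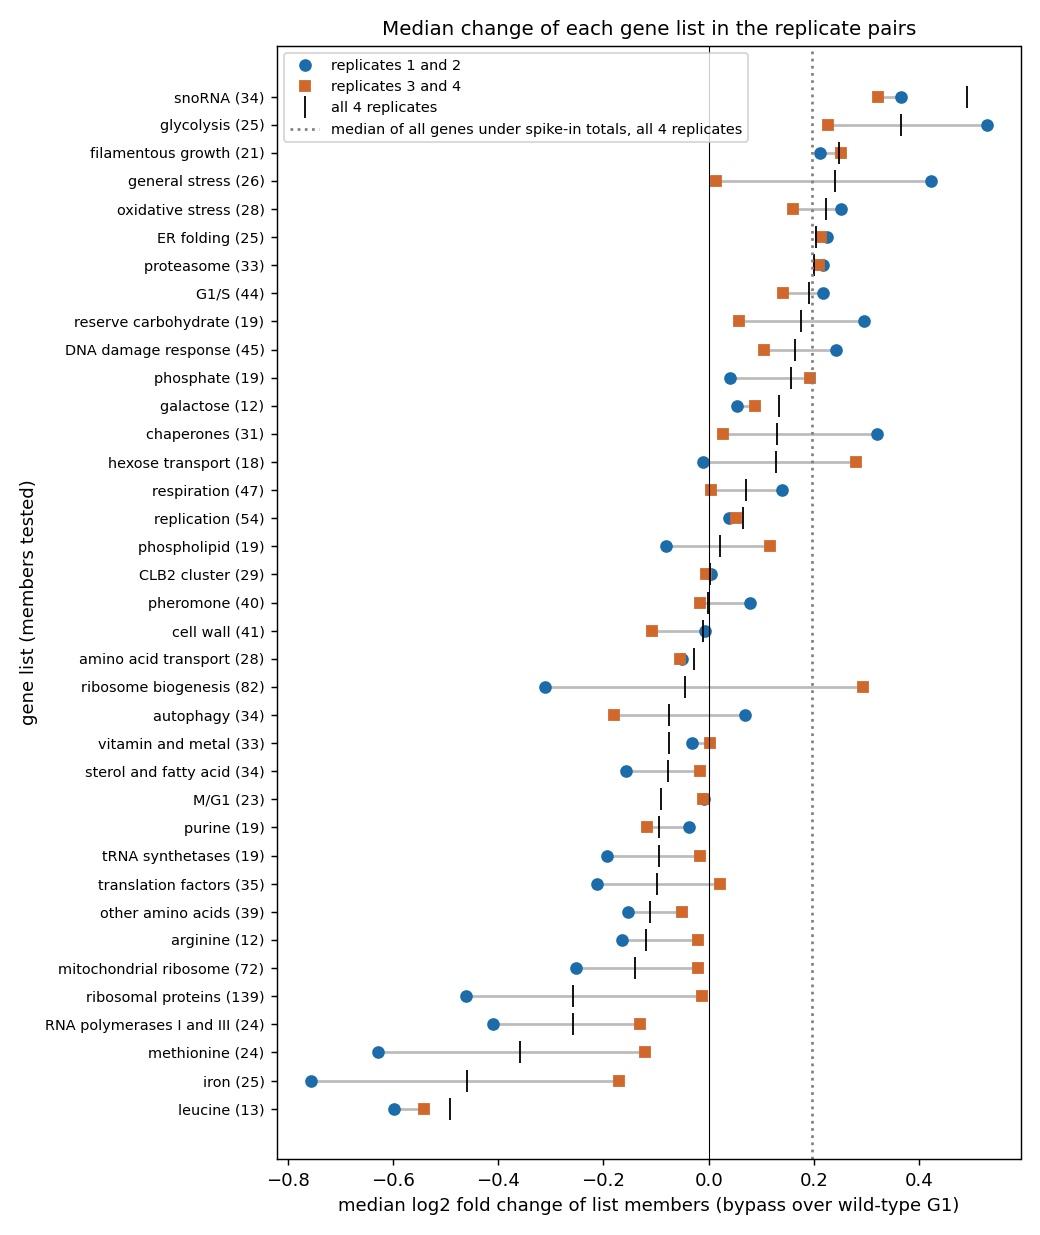
Median log2 fold change (x axis, bypass over wild-type G1) of each of 37 gene lists (y axis, number of members tested in brackets) in replicates 1 and 2 (circles), in replicates 3 and 4 (squares) and in all 4 replicates (bars), with the spike-in scaled median of all genes as a dotted line. The pair medians lie close together for the leucine (-0.60 and -0.54), proteasome (0.22 and 0.21) and ER folding lists (0.22 and 0.21) and far apart for ribosome biogenesis (-0.31 and 0.29), iron (-0.76 and -0.17) and general stress (0.42 and 0.01).

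Branched-chain amino acid synthesis was the list with the lowest median. Of the 13 genes of leucine, isoleucine and valine synthesis and other targets of Leu3, 10 were lower, 1 was higher and 2 were not called, with a median log2 fold change of -0.49 (-0.28 with spike-in scaling), and 9 were lower in both pairs. The changes of 11 of the 13 (84.6%) differed between the pairs, against 40.5% of all genes. Leu3 is a zinc cluster factor that activates these genes when the leucine precursor α-isopropylmalate is plentiful and represses them when it is not. Its site is a pair of CCGG blocks 2 bases apart. Within 500 bases before the start codon, 6 of the 13 list members (46.2%) held such a site, against 16 of 5971 promoters read from the R64 genome (0.268%). These 6 are shown because they are the members whose change can be set beside the sequence, 5′ to 3′ on the gene's strand, with the site in capitals.
LEU1 (R64 chr7:478835-478894, minus strand, 207 bases before the start codon): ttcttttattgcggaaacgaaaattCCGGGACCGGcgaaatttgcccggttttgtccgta
BAT1 (R64 chr8:517360-517419, plus strand, 137 bases before the start codon): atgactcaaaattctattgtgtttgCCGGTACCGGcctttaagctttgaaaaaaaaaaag
GDH1 (R64 chr15:1043412-1043471, minus strand, 394 bases before the start codon): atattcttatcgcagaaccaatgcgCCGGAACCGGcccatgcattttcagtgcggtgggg
ILV2 (R64 chr13:483591-483650, plus strand, 458 bases before the start codon): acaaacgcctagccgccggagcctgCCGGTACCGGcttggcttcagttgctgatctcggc
ILV5 (R64 chr12:839596-839655, minus strand, 367 bases before the start codon): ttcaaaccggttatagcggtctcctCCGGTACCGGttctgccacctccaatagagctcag
LEU2 (R64 chr3:91101-91160, plus strand, 188 bases before the start codon): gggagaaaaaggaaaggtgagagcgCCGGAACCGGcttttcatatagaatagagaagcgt

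OAC1, which carries α-isopropylmalate and oxaloacetate across the inner mitochondrial membrane, stood at 70.1, 79.4, 75.7 and 72.9 CPM in bypass replicates 1 to 4 and 318, 326, 394 and 384 CPM in wild-type G1. All bypass samples lay far below all wild-type samples (log2 fold change -2.25 ± 0.07 SE, adjusted p = 3e-10). LEU1, the isopropylmalate isomerase, was at 381, 378, 409 and 408 CPM in bypass replicates 1 to 4 and 1155, 1145, 2194 and 2209 CPM in wild-type G1. The bypass samples were alike, while wild-type replicates 3 and 4 exceeded replicates 1 and 2, and the gene was lower in both pairs (log2 fold changes of -1.60 ± 0.03 SE in replicates 1 and 2 and -2.43 ± 0.03 SE in replicates 3 and 4). BAT1, the mitochondrial branched-chain aminotransferase, was at 408, 406, 413 and 408 CPM in bypass replicates 1 to 4 and 1022, 1052, 1336 and 1359 CPM in wild-type G1, again with no overlap (log2 fold change -1.54 ± 0.09 SE, adjusted p = 7e-08). GDH1, the NADP-dependent glutamate dehydrogenase that supplies amino groups, fell in both pairs (log2 fold changes of -1.11 ± 0.03 SE in replicates 1 and 2 and -0.97 ± 0.03 SE in replicates 3 and 4). The acetohydroxyacid pathway genes ILV2, ILV3 and ILV5 had log2 fold changes of -0.73, -0.50 and -0.49, and LEU4, the main α-isopropylmalate synthase, one of -0.47. Its lesser paralogue LEU9 was called lower at -0.16 but had -0.36 in replicates 1 and 2, 0.05 in replicates 3 and 4 and 0.06 with spike-in scaling. BAT2, the cytosolic aminotransferase, was the member that rose (log2 fold change 0.63 ± 0.14 SE, adjusted p = 0.0026). LEU2, a marker gene in many strains, was at 102, 114, 106 and 113 CPM in bypass replicates 1 to 4 and 118, 119.6, 190.3 and 167 CPM in wild-type G1 and fell by 0.14 on the log2 scale in replicates 1 and 2 and by 0.71 in replicates 3 and 4. Of the 16 genes in the genome with a Leu3 site in this window, all of which were tested, 11 were lower and 3 were higher. Those outside the list that fell, each in both pairs, were the branched-chain amino acid permease BAP2 (-0.42), FSF1 (-0.95), DRE2 (-0.46), GAT1 (-0.32) and ATP5 (-0.10), and those that rose were NPL3 (0.41), MGM101 (0.20) and GAL11 (0.13).

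**Figure D2:**
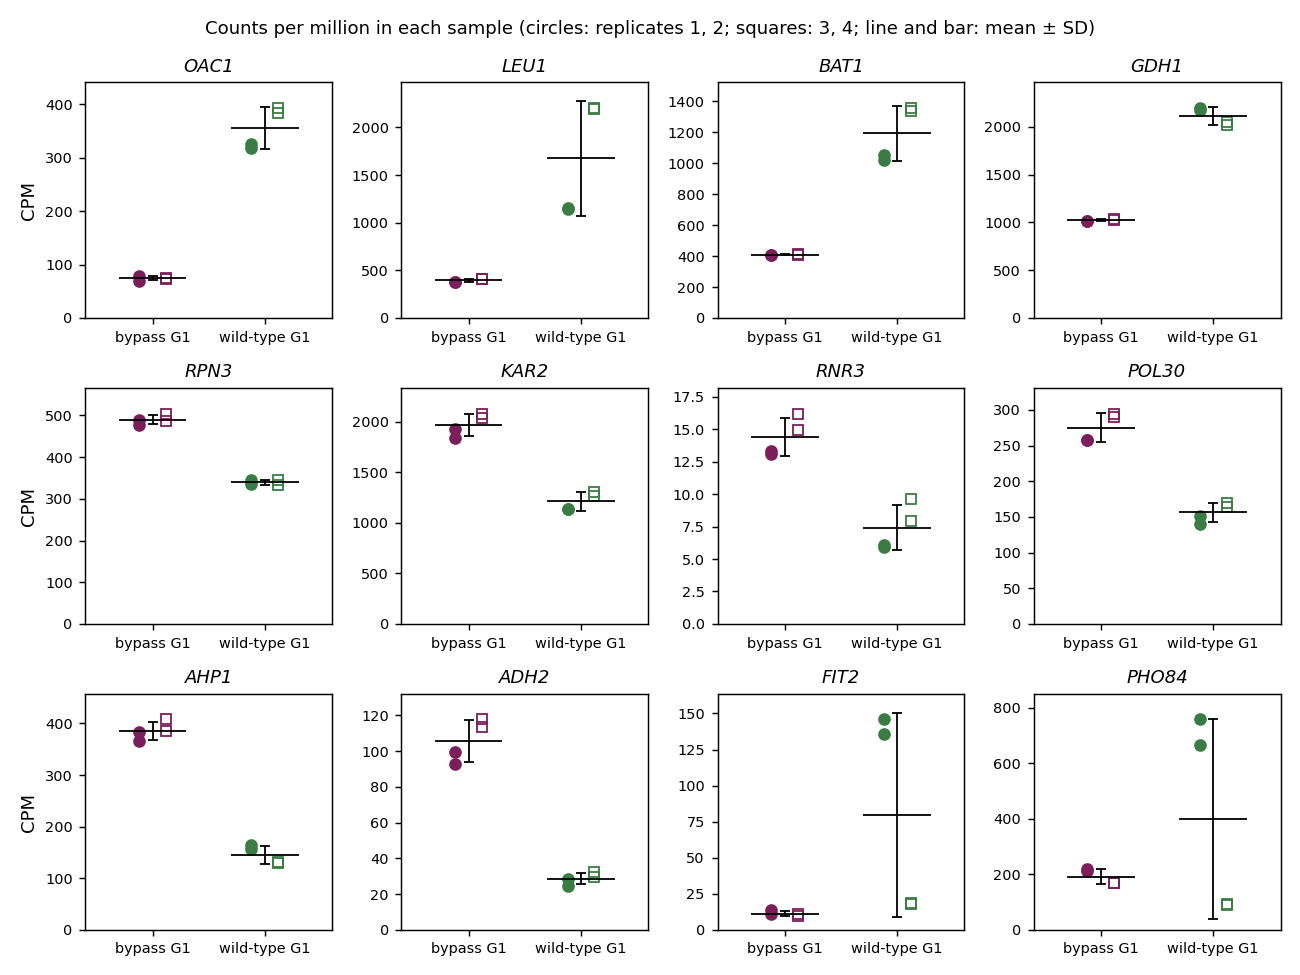
CPM (y axis, from 0) of 12 genes in the 4 bypass and 4 wild-type G1 samples (x axis), with the mean and SD of each group. OAC1, LEU1, BAT1 and GDH1 are lower and RPN3, KAR2, RNR3, POL30, AHP1 and ADH2 higher in every bypass sample than in any wild-type G1 sample, while the wild-type values of FIT2 and PHO84 split into replicates 1 and 2 (136 to 146 and 663 to 757 CPM) and replicates 3 and 4 (18.3 to 18.6 and 88.0 to 91.9 CPM).

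Subunits of the proteasome rose together by a small amount. The proteasome is the protease that degrades ubiquitylated proteins, and its genes share a site for the activator Rpn4. Of 33 subunit genes, 25 were higher, 1 was lower and 7 were not called, with a median of 0.20 (0.42 with spike-in scaling), and 24 were higher in both pairs. In all, 4 of the 33 (12.1%) changed differently between the pairs. The Rpn4 site GGTGGCAAA, searched on both strands, stood in 27 of the 33 promoters (81.8%) and in 98 of all 5971 (1.64%). The strongest and one uncalled member are shown, with the site or its reverse complement in capitals.
RPN3 (R64 chr5:196828-196886, plus strand, 86 bases before the start codon): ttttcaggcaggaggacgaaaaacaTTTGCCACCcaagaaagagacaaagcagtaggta
PRE1 (R64 chr5:177668-177726, plus strand, 133 bases before the start codon): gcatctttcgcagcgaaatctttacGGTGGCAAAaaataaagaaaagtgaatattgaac
RPT2 (R64 chr4:437891-437949, plus strand, 122 bases before the start codon): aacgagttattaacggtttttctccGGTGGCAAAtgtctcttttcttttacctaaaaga
PRE3 (R64 chr10:435020-435078, plus strand, 109 bases before the start codon): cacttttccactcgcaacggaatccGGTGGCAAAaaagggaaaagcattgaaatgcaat
PRE10 (R64 chr15:1018841-1018899, minus strand, 119 bases before the start codon): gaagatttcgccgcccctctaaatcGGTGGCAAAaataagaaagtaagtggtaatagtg

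RPN3, a lid subunit, was at 489.9, 478, 486 and 505 CPM in bypass replicates 1 to 4 and 335, 346, 334 and 345 CPM in wild-type G1. Every bypass sample lay above every wild-type sample (log2 fold change 0.53 ± 0.04 SE, adjusted p = 9.4e-07). PRE1, a β subunit of the core, was at 323, 333, 327 and 347 CPM in bypass replicates 1 to 4 and 242, 230.2, 226 and 235 CPM in wild-type G1 (log2 fold changes of 0.47 ± 0.04 SE in replicates 1 and 2 and 0.55 ± 0.04 SE in replicates 3 and 4), and RPT2, an ATPase of the base, had a log2 fold change of 0.49. PRE10 has the site too, but its log2 fold change of 0.02 was not called. PUP1, a β subunit with no such site in the window, was the member that fell (log2 fold change -0.15 ± 0.05 SE, adjusted p = 0.037), a direction that turned to 0.07 with spike-in scaling. Outside the list, the 70 tested genes with this site included 34 that were higher and 12 that were lower, and 30 and 8 in both pairs.

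Genes of protein folding in the endoplasmic reticulum (ER) were higher as well. Of 25, 19 were higher, 2 were lower and 4 were not called (median 0.20, or 0.42 with spike-in scaling), and 15 were higher in both pairs. KAR2, the ER Hsp70, was at 1928, 1834, 2036 and 2080.5 CPM in bypass replicates 1 to 4 and 1137, 1132, 1269 and 1307 CPM in wild-type G1 (log2 fold change 0.70 ± 0.06 SE, adjusted p = 2e-06). Its nucleotide exchange factors SIL1 and LHS1 rose by 0.87 and 0.72 on the log2 scale, its J-domain partner JEM1 by 0.57, the thiol oxidase ERO1 by 0.72 and the protein disulphide isomerase PDI1 by 0.55. The bypass values of these 6 genes did not overlap the wild-type values. HAC1, the transcription factor of the unfolded protein response, rose more in replicates 1 and 2 than in 3 and 4 (log2 fold changes of 0.54 ± 0.04 SE in replicates 1 and 2 and 0.10 ± 0.04 SE in replicates 3 and 4), and ULI1, a small gene induced in that response, had 6.12, 7.61, 8.91 and 8.58 CPM in bypass replicates 1 to 4 and 1.89, 1.99, 4.42 and 4.92 CPM in wild-type G1. SEC63 and SSS1, parts of the translocation channel, were called lower (-0.13 and -0.21), with 0.08 and 0.01 under spike-in scaling. Counts on HAC1 do not show splicing, which controls its translation. The element CAGCGTG, on either strand, stood in 2 of 25 promoters, those of KAR2 and LHS1, and in 2.33% of all. Outside the list, the 128 tested genes with this element included 30 that were higher and 42 that were lower, where 26.0% and 28.5% of all genes were.

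Genes of the response to DNA damage and of nucleotide supply formed a further group that was mostly higher. In the list of 45 checkpoint, ribonucleotide reductase and inducible repair genes, 23 were higher, 7 were lower and 15 were not called (median 0.16, or 0.38 with spike-in scaling), and 21 were higher and 3 lower in both pairs. HUG1, a small protein induced by DNA damage through the Mec1 pathway, was at 5.74, 5.52, 6.89 and 6.58 CPM in bypass replicates 1 to 4 and 0.756, 1.29, 1.35 and 0.523 CPM in wild-type G1. These are low counts, 5 to 14 read pairs in each wild-type library and 50 to 69 in each bypass library, but no sample overlapped (log2 fold change 2.64 ± 0.23 SE, adjusted p = 3.3e-06). RNR3, the damage-inducible large subunit of ribonucleotide reductase, was at 13.1, 13.3, 16.2 and 15.0 CPM in bypass replicates 1 to 4 and 5.95, 6.06, 9.61 and 7.96 CPM in wild-type G1, higher in both pairs (log2 fold changes of 1.14 ± 0.16 SE in replicates 1 and 2 and 0.82 ± 0.14 SE in replicates 3 and 4). The other subunit genes RNR1, RNR2 and RNR4 had log2 fold changes of 0.61, 0.51 and 0.51. Rfx1, the repressor of RNR2, RNR3, RNR4 and HUG1, binds an element that contains TGGCAAC, and these bases, on either strand, stood in 8 of the 45 promoters (17.8%) and in 4.86% of all. Outside the list, the 270 tested genes with these bases included 75 that were higher and 78 that were lower, near the background. Matches before the 3 reductase genes are shown with the bases in capitals, RNR2 having 2.
RNR2 (R64 chr10:391945-392001, plus strand, 427 bases before the start codon): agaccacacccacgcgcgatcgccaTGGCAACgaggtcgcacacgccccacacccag
RNR2 (R64 chr10:392012-392068, plus strand, 360 bases before the start codon): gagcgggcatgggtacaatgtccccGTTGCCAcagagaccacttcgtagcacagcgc
RNR3 (R64 chr9:240948-241004, minus strand, 264 bases before the start codon): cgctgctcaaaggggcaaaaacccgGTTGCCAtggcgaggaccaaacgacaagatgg
RNR4 (R64 chr7:856657-856713, minus strand, 380 bases before the start codon): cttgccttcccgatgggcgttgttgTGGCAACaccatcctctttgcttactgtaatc

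RAD52, of homologous recombination, and the translocase RAD54 had log2 fold changes of 0.46 and 0.51, and the DNA glycosylase MAG1 one of 0.59, each higher in both pairs. RFX1 itself rose by 0.41. On the other side, the checkpoint clamp loader RAD24, the kinase CHK1 and the nuclease complex subunit RAD50 fell by 0.48, 0.43 and 0.38 in the 4 replicates and were lower in both pairs. The checkpoint kinases RAD53 and MEC1, with log2 fold changes of -0.05 and -0.03, were not called.

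The genes that wild-type cells switch on at the start of the cell cycle under the factors SBF and MBF were higher in part. Of 44, 23 were higher, 8 were lower and 13 were not called (median 0.19, or 0.41 with spike-in scaling), with 19 higher and 5 lower in both pairs. POL30, the sliding clamp PCNA, was at 257, 257, 295 and 289 CPM in bypass replicates 1 to 4 and 139, 152, 164 and 169.9 CPM in wild-type G1 (log2 fold change 0.81 ± 0.09 SE, adjusted p = 1.4e-05). RFA1, the large subunit of the single-strand binding protein RPA, rose by 0.43, RNR1 by 0.61 and SWI6, a subunit of both SBF and MBF, by 0.48. YOX1, a repressor of early cell cycle genes, had 2.68, 1.77, 2.13 and 3.53 CPM in bypass replicates 1 to 4 and 0.756, 0.398, 0.769 and 1.57 CPM in wild-type G1, which is little beside its 199 to 262 CPM in wild-type S. CLN2, the G1 cyclin, fell (log2 fold change -0.31 ± 0.08 SE, adjusted p = 0.0052), as did the forkhead factor HCM1 (-0.46) and POL2, the catalytic subunit of DNA polymerase ε (-0.51). The MBF site ACGCGT stood in 23 of the 44 promoters (52.3%) and in 5.43% of all. Outside the list, the 291 tested genes with this site included 90 that were higher and 69 that were lower, where 26.0% and 28.5% of all genes were. The SBF site CACGAAA, on either strand, stood in 8 of the 44 promoters (18.2%) and in 7.15% of all. Of the 397 tested genes with it outside the list, 140 were higher and 83 lower. The MBF site is shown for the clamp gene, in capitals.
POL30 (R64 chr2:425931-425986, minus strand, 189 bases before the start codon): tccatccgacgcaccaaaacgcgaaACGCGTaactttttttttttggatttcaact

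Among 54 genes of origin licensing, firing and the fork, apart from the induced ones, 22 were higher and 14 lower (median 0.06, or 0.28 with spike-in scaling), and 17 and 9 were so in both pairs. CDC7, the kinase that Dbf4 activates, was at 55.2, 52.6, 54.9 and 53.0 CPM in bypass replicates 1 to 4 and 38.9, 36.0, 41.1 and 40.6 CPM in wild-type G1 (log2 fold change 0.46 ± 0.06 SE, adjusted p = 3.4e-05). Other rises were those of CTF4, which links the helicase to polymerase α (0.46), and the clamp loader subunit RFC5 (0.47). CDC6, ORC1 and ORC3, which load the helicase, fell by 0.35, 0.28 and 0.33. Of the mitotic genes, 6 of 29 were higher and 4 lower, below the background (median 0.0018, or 0.22 with spike-in scaling), and CLB2 was not called (38.6, 38.2, 39.7 and 39.8 CPM in bypass replicates 1 to 4 and 35.1, 42.9, 55.3 and 51.1 CPM in wild-type G1).

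Oxidative stress genes moved in both directions. Of 28, 16 were higher and 6 lower (median 0.22, or 0.44 with spike-in scaling), 16 and 5 in both pairs, and 8 changed differently between the pairs. AHP1, a peroxiredoxin, was at 366, 384, 408 and 385 CPM in bypass replicates 1 to 4 and 164, 156, 131 and 129 CPM in wild-type G1 (log2 fold change 1.41 ± 0.11 SE, adjusted p = 1.6e-06). The NADPH oxidoreductase OYE2, the peroxisomal catalase CTA1 and the peroxiredoxin TSA1 had log2 fold changes of 0.92, 1.07 and 0.52, and YAP1, the transcription factor of this response, one of 0.35. AAD15, of a family of near-identical aryl-alcohol dehydrogenases whose reads can be lost to multiple mapping, had 1.25. TRX1, a cytosolic thioredoxin, fell (log2 fold change -0.47 ± 0.04 SE, adjusted p = 1.2e-06). The Yap1 site TTACTAA, on either strand, was found in 59.3% of the list's promoters and 11.8% of all. Outside the list, the 656 tested genes with this site included 169 that were higher and 187 that were lower, near the background.

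Sugar metabolism was higher, with a size that depended on the pair. Of 25 genes of glycolysis, fermentation and gluconeogenesis, 15 were higher and 1 was lower, the same numbers as in both pairs, and the median was 0.37, made up of 0.53 in replicates 1 and 2 and 0.23 in replicates 3 and 4 (0.58 with spike-in scaling). ADH2, the glucose-repressed alcohol dehydrogenase, was at 99.2, 92.8, 114 and 118 CPM in bypass replicates 1 to 4 and 24.5, 28.6, 29.4 and 32.1 CPM in wild-type G1 with similar changes in the pairs (log2 fold changes of 1.86 ± 0.07 SE in replicates 1 and 2 and 1.91 ± 0.07 SE in replicates 3 and 4). ICL1, isocitrate lyase of the glyoxylate cycle, rose by 0.99, while MLS1, malate synthase of that cycle, had 47.2, 47.8, 46.7 and 44.3 CPM in bypass replicates 1 to 4 and 12.5, 10.2, 36.7 and 38.7 CPM in wild-type G1, so that most of its change lay in replicates 1 and 2 (log2 fold changes of 2.06 ± 0.10 SE in replicates 1 and 2 and 0.27 ± 0.08 SE in replicates 3 and 4). The gluconeogenic genes FBP1 and PCK1 rose by 0.95 and 0.79. ADH1, CDC19 and TPI1, abundant glycolytic genes, rose by 0.68, 0.44 and 0.37, again more in replicates 1 and 2. PGI1, phosphoglucose isomerase, was the member that fell (-0.27).

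Galactose genes, which both groups were induced to express, had a small median change, with members that moved in both directions. The changes of 10 of the 12 (83.3%) differed between the pairs, against 40.5% of all genes. Of 12, 5 were higher and 2 lower (median 0.13, or 0.35 with spike-in scaling, and 0.04 without wild-type G1 replicate 3 or without replicate 4). GAL1, galactokinase, was at 10548, 10637, 10589 and 10826 CPM in bypass replicates 1 to 4 and 8518, 9014, 9572 and 9802 CPM in wild-type G1 (log2 fold change 0.21 ± 0.06 SE, adjusted p = 0.016). GAL3, the galactose sensor that releases Gal4 from Gal80, differed more (log2 fold change 0.72 ± 0.06 SE, adjusted p = 1e-06), and GCY1, an aldo-keto reductase under Gal4, was lower in both pairs (-0.89 and -0.81). LAP3, a peptidase also under Gal4, fell by 0.54.

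In the filamentous growth list, 10 of 21 genes were higher and 3 lower, with 11 higher and 1 lower in both pairs (median 0.25, or 0.46 with spike-in scaling). PGU1, an endopolygalacturonase, was at 93.4, 92.9, 111 and 112 CPM in bypass replicates 1 to 4 and 0.851, 1.59, 2.21 and 2.41 CPM in wild-type G1 (log2 fold change 5.86 ± 0.18 SE, adjusted p = 1.6e-10). KSS1, the MAP kinase of this pathway, was at 207, 213, 221 and 223 CPM in bypass replicates 1 to 4 and 112, 105, 121 and 120.2 CPM in wild-type G1 (log2 fold changes of 0.95 ± 0.05 SE in replicates 1 and 2 and 0.88 ± 0.04 SE in replicates 3 and 4). The pathway inhibitors DIG1 and DIG2, the membrane proteins SHO1, MSB2 and OPY2 and the landmark RAX2 rose by 0.19 to 0.60. FLO11, the adhesin that is the best known output of the programme, was lower at 4.10 to 5.37 CPM against 5.20 to 8.90 CPM, and the ranges overlapped. In the pheromone list 12 of 40 were higher and 8 lower, near the background (median -0.0017, or 0.21 with spike-in scaling), among them KAR3, a kinesin of nuclear fusion, which rose by 0.61, and AGA2, the agglutinin subunit, which fell by 0.72. FUS1 rose by 0.36, and the marker AGA1 was not called (log2 fold change 0.00 ± 0.14 SE, adjusted p = 1).

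A second set of programmes depended on the replicate pair. In the ribosomal, iron, methionine, general stress and chaperone lists the median difference was larger in size between the wild-type G1 pairs than between the bypass pairs. This does not set them apart, because it held for most other lists too, such as glycolysis (0.39 and 0.04), though not arginine (0.05 and 0.09). Over all genes the median size of the difference was 0.16 between the wild-type pairs and 0.06 between the bypass pairs. Genes of ribosome biogenesis are the clearest case of dependence on the pair. Of 82, 5 were higher, 9 were lower and 68 were not called over the 4 replicates, and the median was -0.04 (0.17 with spike-in scaling). Within the pairs, however, the median was -0.31 in replicates 1 and 2 and 0.29 in replicates 3 and 4, 54 genes were called in both pairs with opposite signs, and 81 passed the test of a difference between the pairs. The 82 genes all differed between the wild-type pairs, by a median of -0.63 (replicates 3 and 4 minus 1 and 2), and the median difference between the bypass pairs was -0.02. SSF1, a factor of large subunit assembly, was at 91.4, 88.0, 90.6 and 91.3 CPM in bypass replicates 1 to 4 and 142, 143, 68.2 and 63.7 CPM in wild-type G1. The bypass values lay between the wild-type pairs. NOG2, a GTPase of the same assembly path, was at 279, 274, 265 and 246 CPM in bypass replicates 1 to 4 and 338, 347, 169 and 149.7 CPM in wild-type G1 (log2 fold changes of -0.31 ± 0.04 SE in replicates 1 and 2 and 0.68 ± 0.05 SE in replicates 3 and 4). DBP2, an RNA helicase, had 454, 480.0, 446 and 428 CPM in bypass replicates 1 to 4 and 445, 484, 157 and 115 CPM in wild-type G1 (log2 fold changes of 0.01 ± 0.05 SE in replicates 1 and 2 and 1.68 ± 0.06 SE in replicates 3 and 4).

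**Figure D3:**
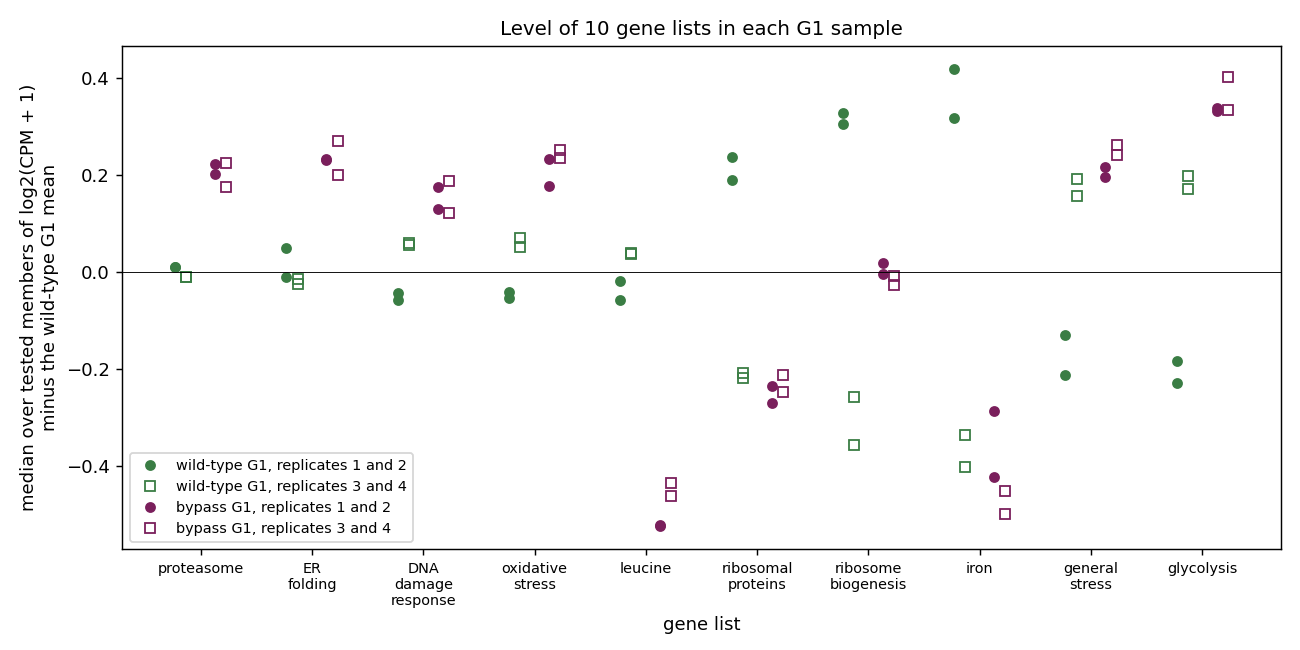
Level of 10 gene lists in each G1 sample, as the median over tested members of log2(CPM + 1) minus its mean in wild-type G1 (y axis), for wild-type G1 and bypass samples of replicates 1 and 2 (circles) and 3 and 4 (squares). For ribosomal proteins the bypass samples lie from -0.27 to -0.21, close to wild-type replicates 3 and 4 (-0.22 and -0.21) and far from replicates 1 and 2 (0.24 and 0.19), whereas for the proteasome and leucine lists all wild-type samples lie apart from the bypass samples.

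Cytosolic ribosomal protein genes were lower over all replicates (85 of 139 lower, 1 higher, median -0.26), with a median of -0.46 in replicates 1 and 2 against -0.01 in replicates 3 and 4. In both pairs 53 were lower and 1 higher, and 50 were called with opposite signs. With spike-in scaling the median was -0.04 and 6 were called lower and 4 higher. RPS19B and RPS21A, small subunit proteins, had the largest falls that kept their sign, each of 0.57, and RPS19B was at 477, 496, 512 and 485 CPM in bypass replicates 1 to 4 and 870.4, 840.3, 601 and 615 CPM in wild-type G1. Subunits of RNA polymerases I and III, which transcribe the ribosomal and transfer RNAs, were lower in 15 of 24 cases and higher in 0, with 13 lower in both pairs and medians of -0.41 and -0.13 (all replicates -0.26, spike-in scaling -0.04). At an unadjusted p under 0.05 the edgeR test had 0 higher members, and DESeq2 called 1. With spike-in scaling, 4 of the 24 were called higher and 0 lower, and 0 were lower in both pairs. RPC34 of RNA polymerase III was at 57.7, 57.4, 57.2 and 53.4 CPM in bypass replicates 1 to 4 and 79.8, 84.9, 65.0 and 68.5 CPM in wild-type G1. RPA49 of RNA polymerase I fell by 0.70 in replicates 1 and 2 and by 0.09 in replicates 3 and 4. Mitochondrial ribosomal protein genes followed with 26 of 72 lower and 8 higher (median -0.14, or -0.25 and -0.02 in the pairs and 0.07 with spike-in scaling), MRPS18 (-0.53) and MRPL37 (-0.50) falling most.

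Iron uptake genes under Aft1, the activator of the iron starvation response, were lower in 17 of 25 cases and higher in 1, with a median of -0.76 in replicates 1 and 2 and -0.17 in replicates 3 and 4 (all replicates -0.46, spike-in scaling -0.25, without wild-type G1 replicate 2 -0.30). The Aft1 site TGCACCC, on either strand, stood in 21 of the 25 promoters and in 2.31% of all. Outside the list, the 113 tested genes with this site included 28 that were higher and 30 that were lower, near the background. The site is shown in capitals at 1 of the 4 matches of a siderophore-binding mannoprotein gene, FIT2. It is shown likewise for FET3, the multicopper oxidase of high-affinity uptake. The FIT2 stretch also holds another of its matches, 242 bases before the start codon, left in lower case.
FIT2 (R64 chr15:1059240-1059296, plus strand, 259 bases before the start codon): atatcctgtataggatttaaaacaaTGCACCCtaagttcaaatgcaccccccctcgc
FET3 (R64 chr13:388546-388602, plus strand, 244 bases before the start codon): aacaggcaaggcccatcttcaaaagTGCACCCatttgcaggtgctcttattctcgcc

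FIT2 was at 11.2, 13.7, 9.72 and 10.8 CPM in bypass replicates 1 to 4 and 136, 146, 18.3 and 18.6 CPM in wild-type G1. It was lower in both pairs, but the wild-type level in replicates 1 and 2 was far above that in 3 and 4 (log2 fold changes of -3.51 ± 0.08 SE in replicates 1 and 2 and -0.84 ± 0.13 SE in replicates 3 and 4). FET3 was at 274, 269, 192 and 195 CPM in bypass replicates 1 to 4 and 1092, 1134, 434 and 425 CPM in wild-type G1 (log2 fold changes of -2.03 ± 0.04 SE in replicates 1 and 2 and -1.15 ± 0.04 SE in replicates 3 and 4). FTR1, the permease that works with Fet3, and ATX1, a copper chaperone, were also among the 9 that fell in both pairs. The siderophore transporter SIT1, the RNA-binding regulator TIS11 and the mannoprotein FIT3 were called in replicates 1 and 2 and not in 3 and 4, with log2 fold changes of -2.07, -1.76 and -2.06 there and of -0.05, -0.05 and 0.01 in replicates 3 and 4, and each passed the test of a difference between the pairs. ISU2, a scaffold for iron-sulphur clusters, went the other way in size (log2 fold changes of -0.78 ± 0.08 SE in replicates 1 and 2 and -1.65 ± 0.07 SE in replicates 3 and 4). MRS4, a mitochondrial iron carrier, was the member that rose (0.23).

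**Figure D4:**
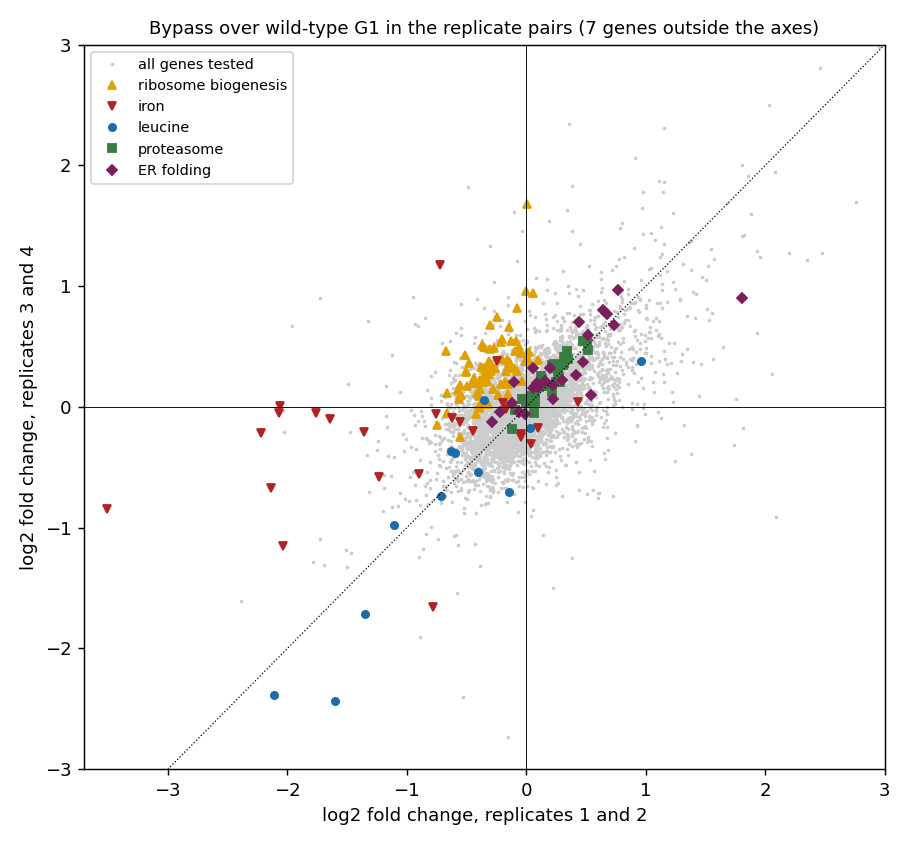
Log2 fold change of bypass over wild-type G1 in replicates 1 and 2 (x axis) against replicates 3 and 4 (y axis) for all tested genes (grey, 7 genes outside the axes) and 5 gene lists, with the line of equal change dotted. Proteasome and ER folding genes lie along the line, LEU1 below it at -1.60 and -2.43, ribosome biogenesis genes lie above it with negative x and positive y (medians -0.31 and 0.29), and iron genes stretch to the left (medians -0.76 and -0.17).

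Sulphate assimilation and methionine genes lay between these cases. Of 24, 15 were lower and 0 were higher (median -0.36, or -0.15 with spike-in scaling), 12 of them in both pairs, with medians of -0.63 and -0.12. At an unadjusted p under 0.05 the edgeR test likewise had 0 higher members, and DESeq2 called 0. With spike-in scaling, 3 of the 24 were called higher and 10 lower, and 4 were lower in both pairs. STR3, a cystathionine β-lyase, fell in both pairs (log2 fold changes of -1.73 ± 0.09 SE in replicates 1 and 2 and -1.09 ± 0.10 SE in replicates 3 and 4). MET13, a methylenetetrahydrofolate reductase, and HOM2, in the path from aspartate, fell alike in the pairs (-0.71 and -0.74, and -0.48 and -0.42). MET3, ATP sulphurylase, had -0.71 in replicates 1 and 2 and 0.05 in replicates 3 and 4. SAM3 and MMP1, permeases for S-adenosylmethionine and S-methylmethionine, fell as well, SAM3 from 212, 225, 141 and 149 CPM in the wild-type G1 samples to 69.4, 65.2, 55.9 and 60.8 CPM in the bypass samples. Arginine genes were mixed, with 6 of 12 lower and 3 higher (median -0.12), and with spike-in scaling 2 lower and 5 higher (median 0.10). ARG1 and ARG3 (-0.85 and -0.63), of arginine synthesis, fell more in replicates 3 and 4, and the arginase CAR1 rose by 0.47.

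General stress genes under Msn2 and Msn4 were higher in 10 of 26 cases and lower in 2 (median 0.24, or 0.47 with spike-in scaling), with medians of 0.42 in replicates 1 and 2 and 0.01 in replicates 3 and 4. Without wild-type G1 replicate 1, 2 or 4 the median was 0.12, 0.09 or 0.37. GAD1, a glutamate decarboxylase, and GRE2, a methylglyoxal reductase, rose in both pairs, GAD1 from 76.5, 75.6, 101 and 109 CPM in the wild-type G1 samples to 199, 197, 221 and 237 CPM in the bypass samples. HSP12, a membrane-protecting heat shock protein, rose by 1.05 and 0.36 in the pairs. Among 31 chaperone genes 13 were higher and 5 lower (median 0.13, or 0.32 and 0.03 in the pairs and 0.35 with spike-in scaling). Without wild-type G1 replicate 1, 3 or 4 the chaperone median was 0.08, 0.22 or 0.21. The Hsp70 SSA3 was at 225, 221, 284 and 279 CPM in bypass replicates 1 to 4 and 109, 108, 102 and 106 CPM in wild-type G1 (log2 fold changes of 1.04 ± 0.04 SE in replicates 1 and 2 and 1.44 ± 0.04 SE in replicates 3 and 4), and HSP82 and its co-chaperone CPR6 rose by 0.60 and 0.76. SSB2 and ZUO1, which act on nascent chains at the ribosome, fell by 0.47 and 0.39. HSP104, the disaggregase, had log2 fold changes of 0.58 and -0.03 in the pairs and was not called over all replicates.

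Among genes whose estimates had opposite signs in the pairs, called or not, those with the smallest p for a difference between the pairs were PHO84, TDH2, SSE2, FIT3 and ENO2. PHO84, the high-affinity phosphate transporter, was at 210.4, 219.9, 168 and 168 CPM in bypass replicates 1 to 4 and 663, 757, 91.9 and 88.0 CPM in wild-type G1. The wild-type pairs lay on either side of the bypass samples (log2 fold changes of -1.72 ± 0.05 SE in replicates 1 and 2 and 0.90 ± 0.06 SE in replicates 3 and 4). The glycolytic genes TDH2 and ENO2 had 0.98 and 0.65 in replicates 1 and 2 and -0.01 and -0.14 in replicates 3 and 4. Of the phosphate genes as a list, 7 of 19 were higher and 1 lower (median 0.16, or 0.37 with spike-in scaling), with GPP2, a glycerol phosphatase, higher in both pairs (0.63 and 0.95).

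Several further large changes were those of marker genes and single genes. HIS3, a selection marker that is mutant in W303, was at 256, 258, 262 and 251 CPM in bypass replicates 1 to 4 and 30.2, 30.4, 29.3 and 26.8 CPM in wild-type G1, and the markers TRP1 and URA3 had log2 fold changes of 0.90 and 0.76, while LYS2 and ADE2 were not called. SUP53, a leucine transfer RNA gene next to LEU2, had 0 to 3 counts in each wild-type G1 library and was at least 88.2-fold higher in bypass cells, at 23.6 to 27.5 CPM, reckoned against 3 counts in each library. These marker values move with the strains, and their part in the leucine result was not tested. IMD2, an inosine monophosphate dehydrogenase from a family of near-identical genes, was at 56.6, 60.7, 70.6 and 75.9 CPM in bypass replicates 1 to 4 and 14.9, 12.6, 17.6 and 20.5 CPM in wild-type G1 (log2 fold change 2.01 ± 0.17 SE, adjusted p = 2.6e-06), and its paralogue IMD4 rose by 0.86. YDL241W, of unknown function, was at 2.77, 2.87, 2.23 and 2.38 CPM in bypass replicates 1 to 4 and 15.7, 13.8, 6.82 and 7.33 CPM in wild-type G1 and fell in both pairs. YPL261C and YGL138C, with at most 3 counts in each wild-type library, were at least 7.39-fold and 5.46-fold higher. LOH1 rose and YDR524W-A fell at levels that did not exceed 3.02 CPM in any sample. Small nucleolar RNAs, most of which lack a poly(A) tail, were called higher in 17 of 34 tested cases, 8 of them in both pairs, and lower in 4, at low counts (median 0.49, or 0.71 with spike-in scaling).

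The other lists are given by their counts over the 4 replicates, whether or not these held in both pairs. Most translation factors (29 of 35), reserve carbohydrate genes (15 of 19) and purine genes (15 of 19) changed differently between the pairs. Respiration (38.3%), other amino acid synthesis (38.5%) and vitamin and metal genes (39.4%) stayed below the background of 40.5%. Pair medians were 0.30 and 0.06 for reserve carbohydrates, -0.21 and 0.02 for translation factors and 0.07 and -0.18 for autophagy. Hexose transport had 7 of 18 genes higher and 1 lower, with a median of 0.13, or -0.01 and 0.28 in the pairs. The median was -0.02 without wild-type G1 replicate 3 or 4 and 0.24 or 0.26 without replicate 1 or 2. Respiration had 20 of 47 and 9 (42.6% higher), and reserve carbohydrates 8 of 19 and 3. Lipid genes were mixed, with 9 of 34 sterol and fatty acid genes higher and 11 lower and 6 of 19 phospholipid genes higher and 5 lower. Cell wall genes (10 of 41 higher, 12 lower) and genes of the M/G1 boundary (5 of 23 higher, 6 lower) were mixed too. In synthesis and uptake of the remaining amino acids, 9 of 39 and 5 of 28 were higher and 19 and 10 lower, and HIS3 and TRP1 are among these 9. For purines the counts were 2 of 19 and 7, the 2 higher being IMD2 and IMD4. Vitamin and metal genes had 4 of 33 higher and 8 lower, tRNA synthetases 4 of 19 and 9, translation factors 6 of 35 and 13, and autophagy genes 7 of 34 and 13. Those of these lists with a median below 0 had one above 0 with spike-in scaling. Both tested genes specific to the α mating type were higher.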

How the data were processed

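The authors counted poly(A)-selected, directional paired-end reads per gene, and the deposited values are raw counts without normalization (reverse-strand counting, multi-mapping reads dropped). The submitters' processing notes name STAR 2.7.10a, SAMtools 1.12, HTSeq 2.0.1 and DESeq2 1.36.0. ERCC spike-ins had been added to the total RNA. Here, the 92 spike-in rows and the summary lines were set aside, and 5662 of 6412 genes passed edgeR's filter on low counts (minimum count 10). A quasi-likelihood model with TMM normalization (edgeR 4.0.16, R 4.3.3) was fitted to the 12 samples, and within-pair values came from a fit with 1 term for each replicate pair of each group. Calls used an adjusted p below 0.1 (Benjamini-Hochberg over all genes tested). Fold changes are bypass over wild-type G1. The script was tested on simulated data. Depth limits genes with few counts, and a gene at or under 3 counts in each control library was given as a lower bound.

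The genes compared and the 39 gene lists were chosen with earlier results of these data known. Named genes were the checks, the 10 largest rises and falls without overlap, up to 2 called members of each list with the same sign in both pairs, every called member of the 8 lists with the largest medians, and the 5 genes that most differed between pairs. Further genes, among them YAP1, RPT2, CTF4, RFX1, CDC6 and RAD53, were chosen after their values were seen, and those with a Leu3 site were named for the site. Promoters are the 500 bases before each start codon in the RefSeq R64 genome, and a motif match is a description, not a site of binding. Of the genes, 6179 matched R64 by name and 233 did not. Alternatives covered the test (DESeq2 1.42.0), normalization, filters, threshold, samples and replicates.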

Additional observations from a re-analysis of the deposited data

Results flagged for a closer look

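Among 646 groups of 4 values examined (323 named genes in each of the G1 groups), 24 had 1 replicate far from the other 3 by Dixon's test. Chance flags about 1 in 20 groups, or 32.3 here, so that this number is no more than chance gives. In wild-type G1 replicate 1, YDR524W-A (3.02 CPM, others 1.35 to 1.59), RPC10 (101.8 CPM) and ERO1 (135 CPM, others 126 to 127) were high, and HOM2 (494 CPM), RNR1 (52.9 CPM) and EXG1 (2150.0 CPM) were low. RAD52 was low in wild-type G1 replicate 2 (121 CPM), BIO2 high in replicate 3 (28.0 CPM) and snR17a high in replicate 4 (1.57 CPM). In bypass replicate 1, GSY1 (71.8 CPM), RPL16A (449.9 CPM), RPS8A (566 CPM) and SOL4 (8.51 CPM) were high, and RPS29A (133 CPM) and RPN11 (309 CPM) low. In bypass replicate 2, FRE3 (28.5 CPM) and FRE5 (3.86 CPM) were high, and LOH1 (0.883 CPM), OPI3 (174 CPM), ATX1 (17.9 CPM) and CTA1 (13.5 CPM) low. PYK2 was low in bypass replicate 3 (146 CPM), and in bypass replicate 4 RPC34 was low (53.4 CPM) and PRE3 high (339 CPM).

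Reads outside annotated genes were not used in the comparisons. They made up 5.41% ± 0.122 (SD, n = 4) of all lines in bypass cells and 5.03% ± 0.129 in wild-type G1, with no overlap (exact permutation test, two-sided, p = 0.0286, the smallest the design allows). Reads ambiguous between genes made up 0.0221% and 0.0186% (exact permutation p = 0.0286). The spike-ins equalled 1.93% ± 0.0981 of the gene counts in bypass cells and 2.28% ± 0.128 in wild-type G1 (exact permutation p = 0.0286).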

How the results depend on the processing

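Spike-in totals moved 37 of the 39 list medians. Of the 323 named genes, 192 kept their call in the same direction or, if not called, stayed so, whatever their sign. They gave 2534 genes higher and 252 lower, 69 lower in both pairs and 852 that differed between pairs, and 91.0% of calls were higher against 47.7%. Counts summed within the replicate pairs gave 739 higher and 738 lower, or 753 and 693 with the pair as a factor, and 139 or 130 named genes lost their call. Leaving out 1 replicate gave 1311 to 1496 higher and 1393 to 1668 lower, 1029 to 1117 higher and 963 to 1050 lower in both pairs, and 1946 to 2141 that differed between pairs. With replicates 1 and 2 only, 24 of the 39 list medians moved beyond the spread between replicates, and with replicates 3 and 4 only, 22 did. Without wild-type G1 replicate 2 the medians of 9 lists moved, without replicate 1 those of 5, without replicate 4 those of 5 and without replicate 3 those of 3. Without bypass replicates 3 and 1, 2 and 1 moved. Over all alternatives 112 values of list medians moved and 629 did not. Under DESeq2, RLE normalization, other filters, the 0.05 threshold, the 8 G1 samples alone and each pair alone, the counts of calls stayed within 1.5 times those reported. Among genes called in both the reported fit and an alternative, 0 had opposite signs. The replicate numbers did not pair the samples (correlation of deviations with the same number 0.06, 0.20, 0.10 and 0.17). Correlations between the groups were 0.06 to 0.20 within replicates 1 and 2 and within 3 and 4, and -0.05 to -0.22 across them, so that the sets of replicates, though not the numbers, deviated together. The replicate block gave 1507 higher and 1603 lower. The within-pair fit with a replicate block gave 1142 higher, 1127 lower and 2285 that differed. That fit and the omission of single replicates from the pair results were added after seeing the data. Signs turned in 31 of the values for named genes that the reported fit called. With spike-in totals these were LEU9 (0.0607), SMF3 (0.0826), CYS3 (0.0452), RPB5 (0.0052), RPC37 (0.0385), RPL11A (0.0544), RPL11B (0.0221), RPL15B (0.0019), RPL19B (0.0017), RPL33A (0.0075), RPS17A (0.0269), RPS26A (0.0118), PAI3 (0.0484), PUP1 (0.0658), SSS1 (0.0055) and SEC63 (0.0802). With replicates 3 and 4 only these were LEU9 (0.0492), FIT3 (0.0041), MET3 (0.0442), RPL15A (0.0194), RPL16B (0.0046), RPL17A (0.0003), RPL19B (0.0287), RPL33A (0.0203), RPL34B (0.0181), RPL7B (0.0805), RPS17A (0.0398), RPS22A (0.0230), RPS26A (0.0132), RPS29A (0.0209) and GRE1 (-0.1551). The cause of these changes was not tested. A further 623 named-gene values lost their call and 41 gained one.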
